A study of Mus musculus with 19 samples.

Results

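Cholesterol synthesis was followed in cultured hepatic stellate cells (HSCs) through 8 genes, chosen by name and matched by Ensembl identifier among the 55487 genes of the count table. The names are those of 6 enzymes of the pathway, of Srebf2, the transcription factor that drives it, and of Insig1, a brake on that factor. All 8 genes were found, and all 8 passed the filter on low counts that left 15138 genes.

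HSCs had been sorted from the livers of male Balb/c mice, healthy and 23–24 weeks of age, by their ultraviolet positivity, which comes from stored vitamin A, and received no treatment. RNA was collected from freshly isolated cells (0 h, 2 samples), or from cells kept on collagen-coated plates in DMEM with 10% fetal bovine serum for 3, 6, 12, 18 or 96 h (3 samples each) or 24 h (2 samples). Each sample pooled 2 technical repeats, and fresh medium was given after 3 h and again after 24 h. Cells came from 3 numbered replicates isolated on 2 dates, with replicates 1 and 3 sharing a date, and 0 h holds replicates 2 and 3 while 24 h holds replicates 1 and 2.

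Cholesterol is built from acetyl-CoA through mevalonate, which is turned into isoprenoid units, farnesyl diphosphate, squalene and lanosterol before the final steps to cholesterol. When sterols in the endoplasmic reticulum run low, SCAP escorts SREBP2, the product of Srebf2, to the Golgi, where it is cut to release a transcription factor that switches on nearly every enzyme of the route. When sterols are plentiful, INSIG proteins hold SCAP back and the genes quieten. Farnesyl diphosphate also feeds protein prenylation, which small GTPases of the cytoskeleton need, so the pathway serves more than membranes in a cell that spreads on plastic.

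Libraries held between 2073171 and 7690892 counts (median 4954915), and the 0 h library of replicate 3 was the shallowest. Levels are given as CPM, the counts scaled by library size and TMM factors, and 3 counts, taken as the floor of detection, correspond to between 0.386 and 1.51 CPM depending on the library. The libraries were made from the 3′ ends of messages, so a level reports the reads at one end of a gene. Summed markers of stellate cells lay between 32169 and 37429 CPM at 0 h and between 2824 and 3178 CPM at 96 h, with all 12 of 12 markers counted at 0 h and Ngfr at 0 at 96 h. Hepatocyte markers lay between 4096 and 9021 CPM at 0 h and between 45.8 and 126 CPM at 96 h, with 12 of 12 counted at both times. Sinusoidal endothelial markers lay between 861 and 1303 CPM at 0 h (9 of 10 counted, Lyve1 at 0) and between 14.7 and 217 CPM at 96 h (8 of 10 counted, Stab2 and Lyve1 at 0). Between these times they did not simply decline, and at 3 h they lay between 1039 and 3402 CPM. Replicate 1, which 0 h does not hold, had the highest endothelial sum at every culture time. Kupffer cell and leukocyte markers lay between 428 and 563 CPM at 0 h (10 of 15 counted) and between 11.2 and 23.2 CPM at 96 h (2 of 15 counted), and cholangiocyte markers never passed 14.6 CPM. The part of these other cells in the results against 0 h was not tested. In such bulk samples, fewer cells of a type and less RNA per cell cannot be told apart.

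The promoters of 5 of the 8 genes were found in the RefSeq table of GRCm38.p6 (Hmgcs1, Insig1, Idi1, Lss and Srebf2). Each covers 250 bases before and 50 bases after the start that RefSeq gives the gene, which can differ from the start in the annotation that is given with each gene below. They are shown for Hmgcs1, the earliest of the 6 enzymes in the route, for Srebf2, one of the genes called below, and for Insig1, the gene of SREBP2's brake, since these 3 hold the core letters of the sterol regulatory element. Capitals mark matches to CACNCCA, that core, and to CCAAT, the box bound by NF-Y, a usual partner of SREBP2, each searched on both strands. The windows are chr13:119690101-119690400 for Hmgcs1, chr5:28071162-28071461 for Insig1 and chr15:82147019-82147318 for Srebf2, all on the plus strand.
Hmgcs1: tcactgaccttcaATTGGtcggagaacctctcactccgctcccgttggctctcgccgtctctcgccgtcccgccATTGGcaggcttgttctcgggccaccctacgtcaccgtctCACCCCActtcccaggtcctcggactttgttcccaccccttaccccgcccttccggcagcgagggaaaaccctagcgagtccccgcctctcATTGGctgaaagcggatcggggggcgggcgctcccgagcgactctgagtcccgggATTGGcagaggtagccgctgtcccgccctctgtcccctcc
Insig1: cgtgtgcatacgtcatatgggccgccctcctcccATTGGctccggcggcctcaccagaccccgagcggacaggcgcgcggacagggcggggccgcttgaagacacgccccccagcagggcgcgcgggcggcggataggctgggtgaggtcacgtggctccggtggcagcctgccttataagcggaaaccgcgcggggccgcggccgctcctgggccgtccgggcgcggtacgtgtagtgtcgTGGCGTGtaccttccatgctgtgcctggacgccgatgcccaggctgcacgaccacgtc
Srebf2: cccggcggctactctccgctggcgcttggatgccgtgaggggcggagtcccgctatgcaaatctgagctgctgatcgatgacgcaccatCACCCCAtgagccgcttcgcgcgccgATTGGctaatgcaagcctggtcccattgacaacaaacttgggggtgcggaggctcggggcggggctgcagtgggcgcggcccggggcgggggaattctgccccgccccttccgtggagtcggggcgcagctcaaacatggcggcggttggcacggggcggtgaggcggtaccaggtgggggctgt
Counted from 1 at the 5′ end of each window, CACNCCA began at base 115 in Hmgcs1, at base 90 in Srebf2 and, on the minus strand, at base 243 in Insig1. In Hmgcs1 it lay inside the longer TCACNCCAC, which 1.24% of all 32851 promoters in the table hold. The shorter CACNCCA was held by 3 of the 5 promoters and by 18.4% of all promoters. CCAAT was held by 5 of 5, and Hmgcs1 had 4 copies of it, against 37.4% of all promoters. GGGCGG, the GC box of Sp1, was also held by 5 of 5, against 35.7% of all. Among the other enzymes of the pathway, 12 of 14 promoters held CCAAT, 12 of 14 held GGGCGG and 2 of 14, those of Acat2 and Msmo1, held CACNCCA. A match is a description of these letters and was not tested as a binding site.

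**Figure D1:**
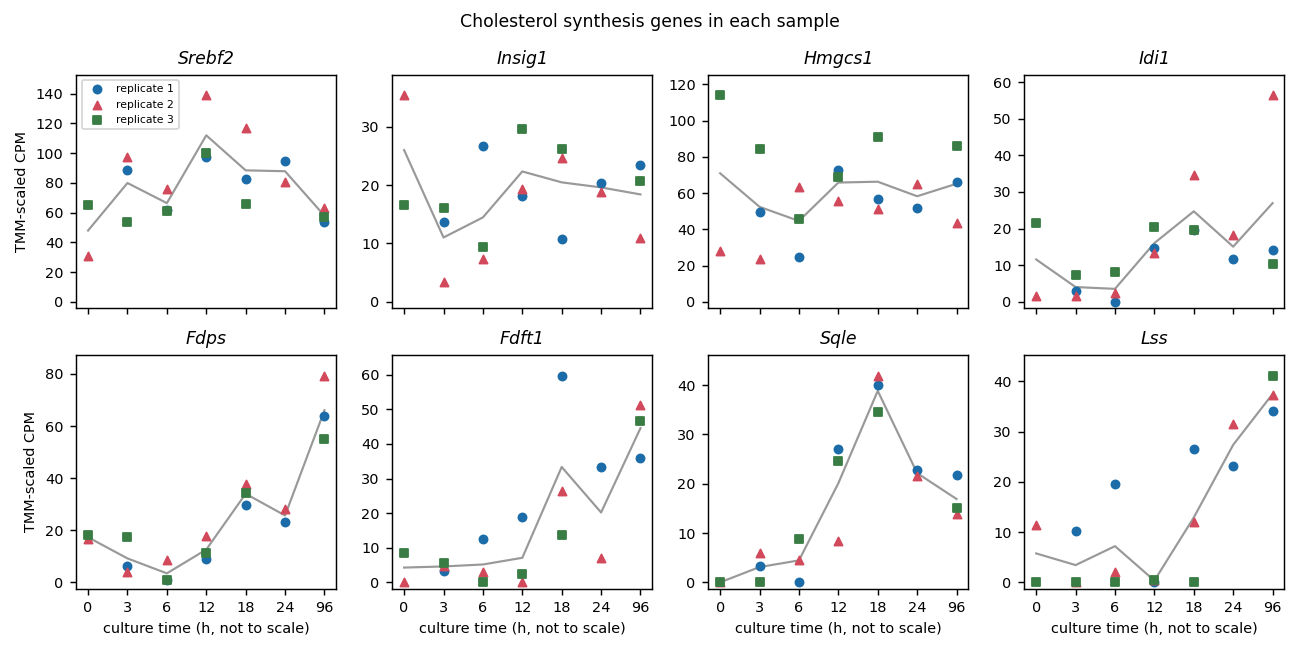
TMM-scaled CPM of each of the 8 genes (y axes, linear, a scale for each gene) in all 19 samples against culture time (x axis, evenly spaced). Symbols mark the numbered replicate and grey lines join the means; Sqle lay at 0 CPM in both 0 h samples and Fdps was highest at 96 h.

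To ask whether any of the genes varied over the whole course, the 7 times were compared in one test per gene. Sqle (edgeR's quasi-likelihood F test with Benjamini-Hochberg adjustment over 15138 genes, adjusted p = 0.0619) and Fdps (adjusted p = 0.0171) passed the threshold of 0.1, and Srebf2 missed it (adjusted p = 0.141). The other 5 had adjusted p values of 0.37 or more. Thus 2 of 8 genes were called, against 27.4% of all genes tested. With the replicate number as a block, only Fdps was called. Sqle was not called in the fits without the 0 h library of replicate 2, the 3 h library of replicate 1 or the 18 h library of replicate 1, each of which called 1 gene, nor without the 0 h library of replicate 3, where Srebf2 was called beside Fdps. Comparisons between 2 times required an adjusted p below 0.1 and also a fold change above 2 for a call.

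Sqle showed the clearest departure from freshly isolated cells. It encodes squalene epoxidase, which adds oxygen to squalene and is one of the slow, tightly regulated steps of the route (chromosome 15, 59315077 to 59331192, plus strand, GRCm38). No read of Sqle was counted in either 0 h library. At 3 h it measured 3.32, 0 and 5.99 CPM in replicates 1, 3 and 2, and at 6 h it measured 0, 8.77 and 4.57 CPM. It measured 27.1, 24.7 and 8.48 CPM at 12 h, then 40.0, 34.6 and 41.9 CPM at 18 h. Thus 2 of the early culture libraries were still at 0, whereas every library from 12 h on lay above both 0 h samples, and the 18 h samples lay above all those of 12 h. Later it measured 22.7 and 21.6 CPM at 24 h and 21.8, 15 and 13.9 CPM at 96 h.

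Since 0 h held no reads, the mean of Sqle at each time was set against the floor of 1.51 CPM. This floor covers counting error and not the spread between replicates. The Sqle mean was 2.95 times this floor at 6 h, where 1 library was at 0 (edgeR against 0 h, adjusted p = 0.0821). It was 13.3 times the floor at 12 h (edgeR, adjusted p = 0.0208) and 25.8 times at 18 h (adjusted p = 0.0151). At 24 h it was 14.7 times the floor (edgeR, adjusted p = 0.0326) and at 96 h 11.2 times (adjusted p = 0.0331). Sqle was called higher than at 0 h at each of these times. At 3 h Sqle was not called (edgeR, adjusted p = 0.169). With the replicate number as a block, its 6 h call was lost (edgeR, adjusted p = 0.121). The 6 h call was lost without either 0 h library and without the 6 h libraries of replicate 3 or 2 (edgeR, up to adjusted p = 0.33). Without the 0 h library of replicate 2 none of the later calls held either (edgeR, adjusted p = 0.144, 0.123, 0.216 and 0.222 at 12, 18, 24 and 96 h). Without that of replicate 3, 18 h alone kept its call, and the adjusted p was 0.107, 0.149 and 0.152 at 12, 24 and 96 h. No step between neighbouring times passed the test for Sqle.

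Fdps encodes farnesyl diphosphate synthase, at the branch between sterols and prenyl groups (chromosome 3, 89093588 to 89101959, minus strand). Its 2 samples at 0 h measured 18.1 and 16.5 CPM. At 3 h they measured 6.30, 17.4 and 3.84 CPM in replicates 1, 3 and 2, and at 6 h 0.890, 0.913 and 8.55 CPM. All 3 samples of 6 h therefore lay under both samples of 0 h, but the difference did not pass the test (log2 fold change -2.31, SE 0.87, edgeR adjusted p = 0.12). It was called lower when the 6 h library of replicate 2 was left out (log2 fold change -4.26, edgeR adjusted p = 0.00343). By 12 h Fdps measured 9.03, 11.1 and 17.6 CPM, and by 18 h 29.7, 34.4 and 37.9 CPM. It measured 23.0 and 28.3 CPM at 24 h and reached 63.7, 55.1 and 79.3 CPM at 96 h, where every sample lay above all those of any earlier time.

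Against 12 h, Fdps was 5.24-fold higher at 96 h (log2 2.39, SE 0.81, edgeR adjusted p = 0.0731), a call that was lost when any one of the 6 libraries was left out (adjusted p between 0.116 and 0.182) or with no filter (adjusted p = 0.124). Against 6 h it was 18.9-fold higher at 96 h (log2 4.24, SE 0.88, edgeR adjusted p = 0.0041) and 9.73-fold higher at 18 h (log2 3.28, SE 0.84, adjusted p = 0.041). The time of 6 h was taken as a reference after its values were seen. Both comparisons with 6 h rest partly on that choice, which leaving out a library does not undo. The first of them held without each of the 6 libraries in turn (edgeR, adjusted p between 0.000239 and 0.0176), and the second was lost without the 6 h library of replicate 1 (adjusted p = 0.13) or of replicate 3 (adjusted p = 0.118) and in a fit of these 2 groups alone (adjusted p = 0.199). Against freshly isolated cells, the 96 h level of 66.0 ± 12.3 CPM (SD, n = 3) stood beside 17.3 ± 1.08 CPM (n = 2), and this difference was not called (log2 1.93, SE 0.92, edgeR adjusted p = 0.242), except in a fit of these 2 groups alone (adjusted p = 0.0276).

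Srebf2 encodes the precursor of SREBP2 (chromosome 15, 82147181 to 82205379, plus strand). It measured 64.8 and 31.1 CPM in replicates 3 and 2 at 0 h. At 12 h its samples measured 97.1, 99.9 and 139 CPM in replicates 1, 3 and 2, above both samples of 0 h, and 2.35-fold higher in the fit (log2 1.23, SE 0.37, edgeR adjusted p = 0.0376). This call was lost without the 0 h library of replicate 2, which is the lower of the pair (log2 0.79, edgeR adjusted p = 0.352), and without the 12 h library of replicate 2, which is the highest of its time (log2 1.02, adjusted p = 0.127). It was also lost with no filter (edgeR, adjusted p = 0.108) and in a fit of these 2 groups alone (adjusted p = 0.119). The samples measured 88.6, 53.6 and 97.6 CPM at 3 h and 62.0, 61.2 and 76.0 CPM at 6 h. At 18 h they measured 82.6, 65.7 and 117 CPM, and at 24 h 94.8 and 80.9 CPM. At 96 h they were back at 53.9, 56.9 and 62.8 CPM, under every sample of 12 h, a difference that passed the adjusted p but not the fold threshold (log2 -0.95, SE 0.32, edgeR adjusted p = 0.0733). A gene of the annotation without a known product, Gm49502, and the microRNA gene Mir33 lie within Srebf2, both on its strand. Mir33 had no counts, but Gm49502 had counts, fewer in total than those of Srebf2. How the counting treated reads shared by Srebf2 and Gm49502 is not given in the sources used here. Reads in that overlap therefore cannot be assigned to either gene with certainty.

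Insig1 encodes the sterol-dependent anchor that keeps SCAP in the endoplasmic reticulum and is itself a target of SREBP2 (chromosome 5, 28071363 to 28078662, plus strand). It measured 16.6 and 35.4 CPM at 0 h and 13.6, 16.1 and 3.36 CPM at 3 h, so that its 3 h samples lay under those of 0 h without passing the test (log2 -1.24, SE 0.81, edgeR adjusted p = 0.505). From 6 h to 96 h its samples ranged from 7.36 to 29.6 CPM and overlapped those of 0 h at each time. Insig1 was called in no comparison. Its mean at 96 h was 18.4 ± 6.58 CPM (n = 3) beside 26 ± 13.3 CPM (n = 2) at 0 h.

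Hmgcs1 encodes the cytosolic HMG-CoA synthase, which joins acetoacetyl-CoA to another acetyl unit (chromosome 13, 119690379 to 119708260, plus strand). Its 2 samples at 0 h stood far apart, at 114 and 27.8 CPM in replicates 3 and 2, and between them spanned every later sample except 1 at 3 h (23.5 CPM) and 1 at 6 h (24.9 CPM). The means of the cultured cells lay between 44.6 ± 19.3 CPM at 6 h (n = 3) and 66.3 ± 21.4 CPM at 18 h (n = 3). Hmgcs1 was called in no comparison, and its direction at 6 h against 0 h turned with 1 library (log2 -0.66, SE 0.58, but 0.65 without the 0 h library of replicate 3).

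Idi1 encodes isopentenyl diphosphate isomerase, which interconverts the pair of isoprenoid building blocks (chromosome 13, 8885501 to 8892451, plus strand). It measured 21.6 and 1.50 CPM at 0 h in replicates 3 and 2. At 6 h it measured 0, 8.22 and 2.39 CPM in replicates 1, 3 and 2, and at 12 h 14.6, 20.3 and 13.2 CPM. The 12 h samples all lay above those of 6 h, but the difference did not pass the test (log2 2.16, SE 1.26, edgeR adjusted p = 0.476). At 96 h Idi1 measured 14.1, 10.3 and 56.4 CPM, with replicate 2 far above the rest, and the difference from 6 h was not called (log2 2.91, SE 1.29, edgeR adjusted p = 0.176).

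Fdft1 encodes squalene synthase, the first enzyme that commits farnesyl diphosphate to sterols (chromosome 14, 63145150 to 63179578, minus strand). It measured 8.54 and 0 CPM at 0 h in replicates 3 and 2 and 35.8, 46.7 and 51.2 CPM at 96 h in replicates 1, 3 and 2. Samples of the 2 times did not overlap, yet the fold change had a wide error (log2 3.41, SE 2.16, edgeR adjusted p = 0.384) and rested on the 0 h libraries, at log2 10.81 without that of replicate 3 and 2.38 without that of replicate 2. The 18 h samples measured 59.7, 13.8 and 26.5 CPM and 3 of the 19 libraries had no count. Its 3′ end overlaps that of Ctsb, a gene of cathepsin B on the other strand, by 774 bases (63145150 to 63145923). Whether the counting used strand is not given in the sources used here, so reads at this end cannot be assigned to one of them with certainty. Ctsb averaged 312 ± 118 CPM at 0 h (n = 2) and 186 ± 24.5 CPM at 96 h (n = 3), the opposite order to Fdft1.

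Lss encodes lanosterol synthase, which folds squalene epoxide into the first sterol (chromosome 10, 76531588 to 76557138, plus strand). It was the sparsest of the 8, with no count in 6 of 19 libraries and fewer than 10 counts in 8. It measured 0 and 11.5 CPM at 0 h in replicates 3 and 2, and 0, 0.534 and 0.509 CPM at 12 h. At 24 h it measured 23.2 and 31.5 CPM, and at 96 h 34.1, 41.1 and 37.2 CPM, above every sample of every earlier time. The difference of 96 h from 12 h was large but did not pass the test (log2 6.60, SE 2.66, edgeR adjusted p = 0.134), although DESeq2 and a fit of these 2 groups alone called it. That from 0 h was not called (log2 2.67, SE 2.59, edgeR adjusted p = 0.614), and its size turned on 1 library (log2 10.52 without the 0 h library of replicate 2 and 1.69 without that of replicate 3).

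Read across the 8 genes, 1 was called higher after 6 h than at 0 h (6.98% of all genes were), 2 after 12 h (8.60%), and 1 each after 18 h (7.64%), 24 h (5.65%) and 96 h (5.83%). None was called higher at 3 h (4.19%; 1 of 8 had an unadjusted p below 0.05, and DESeq2 called 1). None was called lower at any of these times, against 1.39%, 4.35%, 9.10%, 8.21%, 3.86% and 5.03% of all genes at 3, 6, 12, 18, 24 and 96 h. DESeq2 and the fit with isolation date called 1, Fdps, lower at 6 h. With 8 genes, counts of 0, 1 or 2 lie near these background shares. The median log2 difference of the 8 genes was -0.60, -0.19, 0.19, 1.04, 0.72 and 1.58 in the order of these times, whereas the median of all genes tested stayed between 0.00 and 0.07. At 18, 24 and 96 h, 4 of 8 genes had all samples above those of 0 h, against 19.1%, 26.1% and 22.2% of all genes. These 6 comparisons share their 0 h samples.

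**Figure D2:**
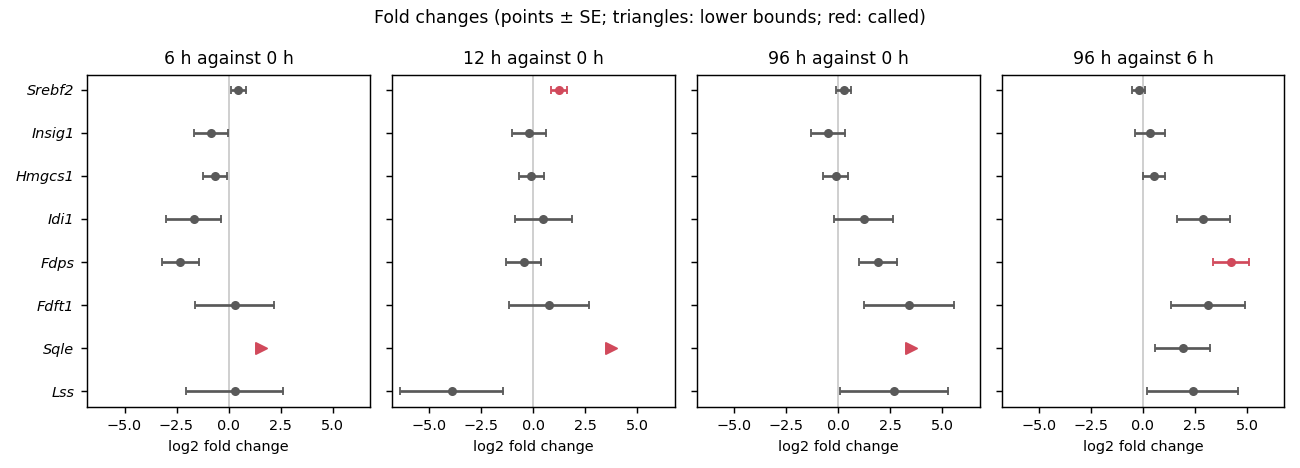
Log2 fold changes of the 8 genes (x axes) at 6, 12 and 96 h against 0 h and at 96 h against 6 h, as points with SE bars from the edgeR fit. Triangles set the mean of Sqle, which had no reads at 0 h, against the floor, and are bounds for counting error only. Red marks calls: Sqle in the 3 comparisons with 0 h, Srebf2 at 12 h and Fdps at 96 h against 6 h. The time of 6 h was taken as a reference after the values were seen.

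Between times in culture, 1 of the 8 genes, Fdps, was called higher at 96 h against 12 h (6.96% of all genes), at 96 h against 6 h (5.76%) and at 18 h against 6 h (1.14%). At 96 h, 5 of 8 (Sqle, Idi1, Fdps, Fdft1 and Lss) had all samples above those of 6 h, against 19.6% of all genes, and the median log2 difference of the 8 was 2.15 against 0.12 for all genes. None of the 8 was called lower in these comparisons (6.57%, 7.46% and 2.99% of all genes). The time of 6 h was taken as a reference after the values were seen. The counts and medians of 96 h and 18 h against 6 h therefore rest partly on that choice. Between 6 and 12 h none was called higher (0.416%; 2 of 8 had an unadjusted p below 0.05), but 3 of 8 (Idi1, Fdps and Srebf2) had all 12 h samples above those of 6 h, against 8.40% of all genes. The steps from 3 to 6 h, 12 to 18 h, 18 to 24 h and 24 to 96 h held 0 calls and 0 unadjusted p values below 0.05 for the 8 genes by edgeR, and 0 calls by DESeq2. Of all genes, 2.50% rose and 1.99% fell from 3 to 6 h, 0.0727% and 0.152% from 12 to 18 h, 0.0132% and 0.0264% from 18 to 24 h, and 1.37% and 1.35% from 24 to 96 h, and 1.42% fell from 6 to 12 h. The direct step from 24 to 96 h had 3 of 8 with all samples higher (Fdps, Fdft1 and Lss; 15.9% of all genes), while the samples of Srebf2 all lay lower.

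The genes shared this course only in part. Over the 19 samples, the 28 pairs of genes had a median Pearson r of log2 CPM of 0.26, from -0.23 to 0.71, and 23 pairs lay above 0. The highest was that of Idi1 with Fdps. These samples share culture time and differ in depth, so the correlations are descriptive. When each gene was scaled to the same spread and the 8 were averaged, the average lay between -0.98 and -0.08 in the 8 samples of 0, 3 and 6 h and between 0.02 and 0.77 in the 11 samples from 12 h on. Of the 6722 other genes averaging 20 CPM or more, those most like this average over the 19 samples were Gpr176 (r = 0.92), Ddah1 (0.92), Rhoa (0.92), Gm14586 (0.90), Fat1 (0.89), Fam120a (0.89), Myo5a (0.88), Hint1 (0.88), Rplp0 (0.88) and Mif (0.88). Only 3 of these 10 remained among the top 10 when the 7 time means were used, and 9 remained with library size scaling.

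The rest of the enzymes were read from a list of 14, of which 13 passed the filter and Idi2 had no counts. Means are given with their SD over 2 samples at 0 h and 24 h and 3 samples at the other times. Against 0 h, 1 fell by 6 h (4.35% of all genes did), and 1 rose and 2 fell by 12 h (8.60% and 9.10%). By 18 h, 1 rose and 1 fell (7.64% and 8.21%), by 96 h 2 rose (5.83%), and at 3 and 24 h none passed the test. Their median log2 difference was -0.11 at 12 h and 1.51 at 96 h (1.23 with genes at 0 set to their bound). Msmo1, which removes methyl groups from lanosterol's products, averaged 41.7 ± 2.88 CPM at 0 h and rose to 130.3 ± 21.6 CPM at 12 h (log2 1.65, SE 0.44, edgeR adjusted p = 0.019), 107 ± 20.5 CPM at 18 h (adjusted p = 0.0537) and 119 ± 20.6 CPM at 96 h (adjusted p = 0.0418). These calls were lost without either 0 h library (edgeR, adjusted p up to 0.154, 0.293 and 0.272 in this order), that of 18 h also without the 18 h libraries of replicate 3 or 2 and that of 96 h without the 96 h library of replicate 3. Acat2, which makes the acetoacetyl-CoA that Hmgcs1 uses, rose from 20.7 ± 4.81 CPM to 64.3 ± 19.6 CPM at 96 h (log2 1.64, SE 0.53, edgeR adjusted p = 0.0734, but up to 0.405 without either 0 h library or the 96 h library of replicate 1).

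The enzymes that act after Lss differed among themselves, and early and late steps of the route were not compared in a test. Against 6 h, 2 of the 13 other enzymes, Sc5d and Dhcr7, were called higher at 96 h (5.76% of all genes were). The call of Dhcr7 (edgeR, adjusted p = 0.0486) was lost without the 6 h libraries of replicate 3 or 2 or the 96 h library of replicate 3 (up to 0.116). Sc5d, a desaturase of the sterol ring, averaged 34.8 ± 13.3 CPM at 0 h, 15.8 ± 6.64 CPM at 6 h and 66.6 ± 21.1 CPM at 96 h (log2 2.07 against 6 h, SE 0.57, edgeR adjusted p = 0.0254, and up to 0.0923 without each library). Hsd17b7 averaged 6.78 ± 6.04 CPM at 0 h and had its highest mean at 24 h, 43.8 ± 9.72 CPM. Sc5d and Hsd17b7 were named after their values were seen. Dhcr7, which performs the final reduction of one branch, averaged 17.6 ± 3.53 CPM at 0 h and fell to 0.495 ± 0.453 CPM at 6 h (edgeR, adjusted p = 0.047), 0.696 ± 0.581 CPM at 12 h (adjusted p = 0.051) and 0.205 ± 0.189 CPM at 18 h (log2 -6.26, SE 1.61, adjusted p = 0.0163). The 18 h call held without each library in turn (edgeR, adjusted p up to 0.0556), and those at 6 and 12 h were lost without either 0 h library, without the 6 h library of replicate 2 or without the 12 h libraries of replicate 1 or 3 (up to 0.15 and 0.151). At 96 h Dhcr7 was again at 13.3 ± 4.52 CPM, above its 12 h level (log2 4.21, SE 1.42, edgeR adjusted p = 0.0714, lost without replicate 1 or 3 of either time, up to 0.197). Nsdhl, another demethylation enzyme, had 11.2 ± 2.30 CPM at 0 h, no reads in the 3 samples of 12 h and 41.1 ± 11.7 CPM at 96 h. Its 96 h mean was 59.1 times the floor of 12 h (edgeR against 12 h, adjusted p = 0.0279, and between 0.0463 and 0.0881 without each library). Its fall from 0 to 12 h (edgeR, adjusted p = 0.0488) was lost without the 0 h library of replicate 2 or any 12 h library (up to 0.125). Cyp51, which acts on the product of Lss, averaged 12.7 ± 6.22 CPM at 0 h and 66.6 ± 5.06 CPM at 96 h without passing the test (log2 2.40, edgeR adjusted p = 0.23), although DESeq2 and an edgeR fit of these 2 groups alone called it (adjusted p = 0.0287 in the latter).

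**Figure D3:**
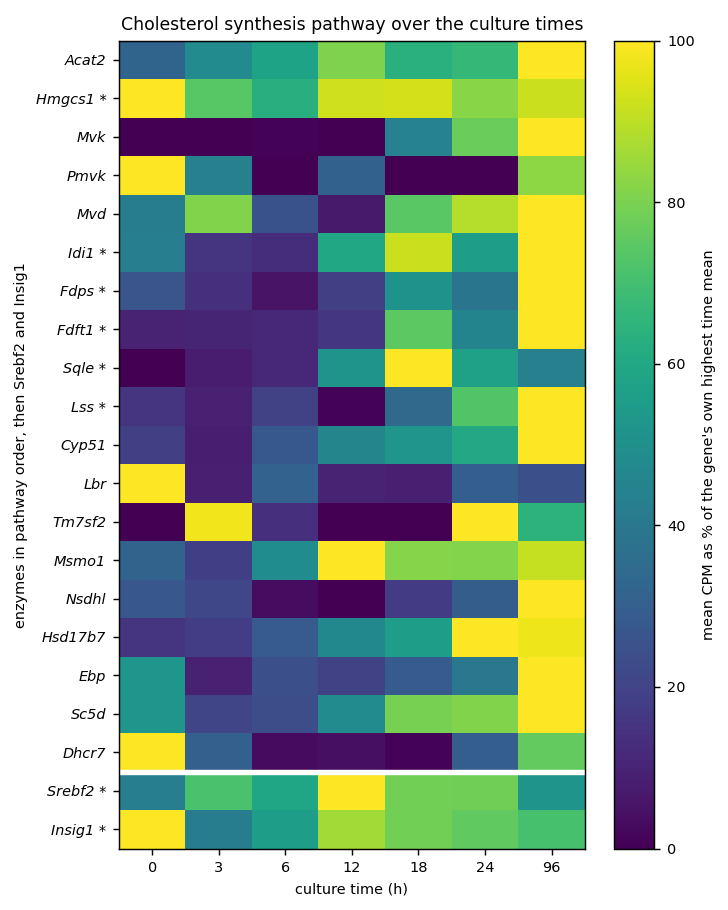
Mean CPM of the 6 enzymes among the 8 genes and of 13 others in pathway order, then Srebf2 and Insig1, at each culture time (x axis), coloured as a percentage of each gene's own highest time mean; asterisks mark the 8 genes. The brightest cell lay at 96 h for 4 of the 6 enzymes among the 8 genes and for 7 of the other 13.

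Along the route, 4 of the 6 enzymes among the 8 genes (Idi1, Fdps, Fdft1 and Lss) had their highest mean at 96 h, and so did 7 of the 13 other enzymes, against 19.5% of all genes tested. Hmgcs1 alone of the 6 had its highest mean at 0 h, where its samples stood far apart, and Sqle had it at 18 h. Srebf2 had its highest mean at 12 h, as did Msmo1.

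Among 10 genes that process SREBPs or sense sterols, none was called at 3 or 6 h against 0 h. At 12 h 1 fell (9.10% of all genes did), at 18 h 2 fell (8.21%), at 24 h 1 rose (5.65%) and at 96 h 2 fell (5.03%). Insig2, the relative of Insig1, fell from 62.7 ± 18.5 CPM at 0 h to 20.6 ± 8.57 CPM at 12 h (log2 -1.60, SE 0.49, edgeR adjusted p = 0.0388, but up to 0.263 without the 0 h library of replicate 3 or the 12 h library of replicate 2). Srebf1, whose product SREBP1 favours fatty acid genes, fell from 84.7 ± 12.5 CPM to 20 ± 7.69 CPM at 18 h (log2 -2.08, SE 0.52, edgeR adjusted p = 0.0137) and 22.6 ± 11.9 CPM at 96 h (adjusted p = 0.0284, and 0.176 without the 0 h library of replicate 2). Mbtps1, the first of the proteases that cut SREBPs, fell to 33.7 CPM at 96 h from 128 CPM (log2 -1.92, SE 0.38, edgeR adjusted p = 0.00352). Scap, the escort, rose from 44.9 ± 21.7 CPM to 139 ± 41.4 CPM at 24 h (log2 1.64, SE 0.53, edgeR adjusted p = 0.077, lost without the 0 h library of replicate 2 or either 24 h library, up to 0.437). Beside these, the log2 difference of Srebf2 from 0 h was 0.89 (SE 0.37) at 18 h and 0.88 (SE 0.40) at 24 h, neither of them called.

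Of the 11 genes of cholesterol uptake and transport, 10 were tested. Against 0 h, none rose, 3 fell at 12 h (9.10% of all genes did), 3 fell at 18 h (8.21%), and 2 fell at 24 h (3.86%) and 96 h (5.03%). Mylip, a ligase that marks lipoprotein receptors for breakdown, fell from 210.1 ± 52.9 CPM to 19.6 ± 9.17 CPM at 12 h (log2 -3.43, SE 0.57, edgeR adjusted p = 0.000545). Lrp1, a broad lipoprotein receptor, fell from 1500.3 CPM to 309 CPM at 12 h (log2 -2.28, SE 0.24, edgeR adjusted p = 6.67e-06). Both also made up the 2 calls at 24 and 96 h. The third gene at 12 h was Lipa, the lysosomal lipase that frees cholesterol from its esters, which fell from 54.6 ± 15.8 CPM to 13.4 ± 9.76 CPM (log2 -2.03, SE 0.58, edgeR adjusted p = 0.0258, but 0.171 without the 0 h library of replicate 3). The third at 18 h was Npc2, which carries cholesterol out of the lysosome, at 69.7 ± 12.4 CPM beside 142 ± 25.9 CPM (log2 -1.02, SE 0.29, edgeR adjusted p = 0.0285). That call was lost with library size scaling and without the 0 h library of replicate 3 or the 18 h library of replicate 1 (edgeR, adjusted p up to 0.189). At 96 h Lipa averaged 53.7 ± 11.5 CPM and Npc2 225 ± 19.8 CPM. Against 12 h, Scarb1, Npc2 and Lipa were called higher at 96 h (3 of 10; 6.96% of all genes) and Osbp lower (1 of 10; 6.57%). Lrp1 was called higher at 96 h than at 24 h (1 of 10; 1.37%). These calls within culture were not recomputed with the alternatives.

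In the list of 10 genes of LXR response, efflux and esterification, 1 rose at each time from 6 h on, and 2 fell at 12, 18 and 24 h and 1 at 96 h. The gene that rose was Ch25h from 6 to 24 h and Soat1 at 96 h. Of all genes, between 5.65% and 8.60% were called higher from 6 h on, and between 3.86% and 9.10% lower from 12 h on. Ch25h, which makes the oxysterol that INSIG proteins sense, averaged 1.26 ± 1.78 CPM at 0 h, rose to 118 ± 43.2 CPM at 12 h (log2 6.71, SE 1.11, edgeR adjusted p = 0.000525) and was at 5.23 ± 1.19 CPM at 96 h, where it was not called (adjusted p = 0.183). One of its 0 h libraries had no count, and the log2 difference at 12 h was 12.20 without the 0 h library of replicate 3 and 5.54 without that of replicate 2. Soat1, which esterifies cholesterol for storage, averaged 54.7 ± 15 CPM at 0 h and 114 ± 14.8 CPM at 96 h (log2 1.06, SE 0.37, edgeR adjusted p = 0.0943). The call of Soat1 was lost in 9 of 11 alternatives, among them the fits without each of the 5 libraries (edgeR, adjusted p between 0.129 and 0.513). Apoe, the lipoprotein of cholesterol efflux, fell from 2657 ± 105 CPM at 0 h to 38.4 ± 35.9 CPM at 96 h (log2 -6.13, SE 0.58, edgeR adjusted p = 3.67e-06). Apoe was called lower from 12 h on. The second gene was Cyp27a1, the sterol 27-hydroxylase, at 12 and 18 h, where no library had a count (edgeR, adjusted p = 0.084 and 0.0948). Its 0 h libraries measured 29.6 and 0 CPM in replicates 3 and 2, and the 12 h call was lost without that of replicate 3 and without any 12 h library. The second at 24 h was Abcg1, another sterol exporter, which had 46.7 ± 1.38 CPM at 0 h and 10.0 ± 1.11 CPM at 24 h (log2 -2.22, SE 0.75, edgeR adjusted p = 0.0961), a call lost without any of the 4 libraries (up to 0.401) and with library size scaling (0.139). Abca1, the cholesterol exporter, was called lower at 96 h (4.86 CPM) than at 6 h (90.3 CPM; log2 -4.19, SE 1.49, edgeR adjusted p = 0.0871), but the call was lost without any 6 h library or without the 96 h libraries of replicate 1 or 2 (up to 0.215).

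Fatty acid synthesis, the neighbouring product of SREBPs, had 12 genes, all tested. Against 0 h, 1 rose by 3 h (4.19% of all genes did), 2 fell by 6 h (4.35%), and 1 rose and 4 fell by 12 h (8.60% and 9.10%). By 18 h 4 fell (8.21%), by 24 h 1 fell (3.86%), and by 96 h 3 rose and 1, Srebf1, fell (5.83% and 5.03%). Scd1, a stearoyl-CoA desaturase, fell from 31.0 ± 6.89 CPM at 0 h to 0.499 ± 0.435 CPM at 12 h (log2 -5.89, SE 1.75, edgeR adjusted p = 0.0333, and up to 0.0906 without each library). Elovl6, which elongates fatty acids, rose from 5.65 ± 3.38 CPM to 43.1 ± 17.7 CPM at 3 h (log2 2.94, SE 0.83, edgeR adjusted p = 0.0576) and 35.2 ± 12.7 CPM at 96 h (adjusted p = 0.0561). Both of its calls were lost without either 0 h library, that of 3 h also without the 3 h libraries of replicate 1 or 3 and that of 96 h without the 96 h library of replicate 2 (edgeR, adjusted p up to 0.371 and 0.359). Fads1, a desaturase of polyunsaturated fatty acids, fell from 111 ± 26 CPM to 23.0 ± 6.46 CPM at 12 h (log2 -2.26, SE 0.38, edgeR adjusted p = 0.000545). Fads2, its relative, fell from 366 ± 53.1 CPM at 0 h to 70.4 ± 10.7 CPM at 6 h (log2 -2.38, SE 0.23, edgeR adjusted p = 5.58e-06), and rose from 90.5 ± 22.4 CPM at 12 h to 305 ± 18.0 CPM at 96 h (log2 1.75, SE 0.21, adjusted p = 3.61e-05). Fads2 shared with Fdps a lowest mean at 6 h, but its 96 h mean lay below that of 0 h. At 96 h against 12 h, 6 of the 12 genes were called higher (6.96% of all genes were) and none lower (6.57%). They were Elovl6, Scd1, Scd2, Fads1, Fads2 and Me1. The call of Fads2 held without each of the 6 libraries, and those of Scd1 and Scd2 were each lost without 2 of them. Those of Elovl6, Fads1 and Me1 were not recomputed with the alternatives. Fasn, the fatty acid synthase, rose from 48.0 ± 14.7 CPM to 103 ± 10.3 CPM at 12 h (log2 1.10, SE 0.35, edgeR adjusted p = 0.0485) and 121 ± 53.1 CPM at 96 h (adjusted p = 0.0268), and both calls were lost without the 0 h library of replicate 3, that of 12 h also without the 12 h library of replicate 2 and that of 96 h without the 96 h library of replicate 3 (up to 0.349 and 0.263). Me1, which supplies NADPH, rose to 361 ± 24.8 CPM at 96 h from 77.9 ± 29 CPM (log2 2.21, SE 0.35, edgeR adjusted p = 0.000531). Scd2, the relative of Scd1, fell from 96.0 ± 21.9 CPM to 0.742 ± 0.644 CPM at 12 h (log2 -6.98, SE 2.15, edgeR adjusted p = 0.0396, but up to 0.12 without the 12 h libraries of replicate 3 or 2).

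Among the 12 genes that use the products of Fdps for prenylation, dolichol and ubiquinone, 1 rose and 1 fell at 3 h against 0 h (4.19% and 1.39% of all genes did). None was called against 0 h at the later times. The riser was Ggps1, which extends farnesyl to geranylgeranyl diphosphate (61.5 to 133 CPM, log2 1.12, SE 0.30, edgeR adjusted p = 0.0485, up to 0.263 without either 0 h library or the 3 h library of replicate 1). Nus1, a subunit of the dolichol enzyme, fell from 111 to 46.1 CPM (log2 -1.27, SE 0.29, edgeR adjusted p = 0.0173, and 0.234 without the 0 h library of replicate 2). Fdps itself at 3 h differed from 0 h by log2 -0.91 (SE 0.85). Within culture, Fnta and Zmpste24 were called higher at 96 h against 12 h (2 of 12; 6.96% of all genes) and Pggt1b lower (1 of 12; 6.57%). Fnta and Zmpste24 were also called higher at 96 h against 6 h (5.76% of all genes). These calls within culture were not recomputed with the alternatives.

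**Figure D4:**
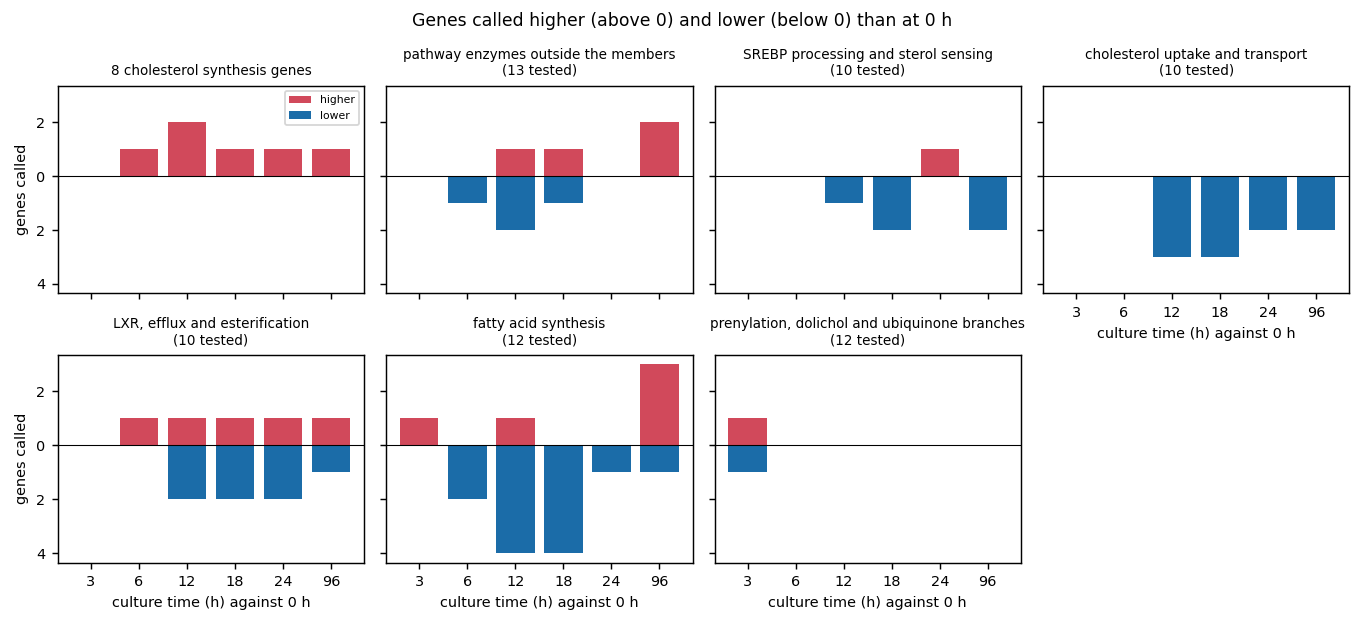
Number of genes called higher (red, above the line) or lower (blue, below the line) than at 0 h at each culture time, for the 8 genes and for 6 lists of related genes. The 8 genes held 1 or 2 higher calls from 6 h on and no lower call, where between 5.65% and 8.60% of all genes were called higher and between 3.86% and 9.10% lower, so their counts lie near the background. The lists of uptake (10 tested) and of fatty acid synthesis (12) held up to 3 and 4 lower calls, and no difference between lists was tested.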

How the data were processed

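RNASeq was measured in 19 samples of mouse HSCs over 7 culture times. The table deposited by the authors holds unnormalized read counts, as whole numbers for each gene in each sample. The authors made them from single-end reads of a 3′ mRNA library kit, trimmed and mapped to GRCm38.p6 (mm10 in the submitters' processing notes) with STAR and assembled with StringTie. The tool, annotation release and strand setting of the counting are not given in the sources used here. Reads carried no molecular identifiers, so copies made in amplification could not be told from separate molecules. The floor of 3 counts per library leaves such copies out and covers only the error of counting reads. Libraries of 1 time could differ by far more than this floor. Lss at 6 h had 66, 10 and 0 counts in replicates 1, 2 and 3. Groups, replicate numbers and isolation dates came from the sample labels, and no column was left out.

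Genes were filtered with filterByExpr, which kept 15138. After TMM scaling, edgeR 4.0.16 (limma 3.58.1, R 4.3.3) gave quasi-likelihood F tests from one fit of all 19 samples with time as the only factor. P-values were adjusted by Benjamini-Hochberg over all genes tested, and a call needed an adjusted p below 0.1 together with a fold change over 2. Standard errors are the absolute log2 fold change divided by the square root of F. A fold against a group at 0 counts is the mean of the other group over the highest floor of the libraries at 0. This bound leaves out the spread between replicates. The fit was tested on simulated data. Correlations used log2 CPM with a prior count of 2. Alternatives were DESeq2 1.42.0, library size scaling, no filter, the replicate number as a block, isolation date, fits of only 2 groups, other thresholds and leaving out each library. In the labels each replicate number goes with 1 isolation date, and numbers 1 and 3 share theirs. The paper describes 3 independent repeats per time, with part of the isolated cells collected at once and the rest plated. The labels do not say whether the number marks such a repeat. The main fit therefore did not pair samples by it, and the block by number is given as an alternative.

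The 8 genes and all lists were chosen with earlier results of these data known, and the comparisons of 96 h and 18 h with 6 h were added after the values were seen. From each list, at most 6 genes called against 0 h were named, those with the largest fold change first, plus Insig2, Srebf1, Scap, Abca1, Cyp51, Scd2 and Fasn. Some genes of the pathway are not reported here and were left out of the lists. Likeness named the 10 genes of at least 20 CPM with the highest r. Promoters came from RefSeq. Figures were drawn with matplotlib 3.10.9 in Python 3.11.15.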

Additional observations from a re-analysis of the deposited data

How the results depend on the processing

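Counts of the 8 genes called were small, and 350 recomputed counts stayed within 1.5 times the value reported while 48 did not. Counts of 0 that stayed 0 are among the 350, so these numbers do not measure how firm the calls were. Of the recomputed log2 fold changes, 683 kept their direction and side of the threshold, 145 lost a call, 19 gained one, 2 changed sign and 1 became 0.00, that of Cyp27a1 at 12 h against 0 h without the 0 h library of replicate 3, when no library of either time had a count (-10.18 without that of replicate 2). The sign changed for Hmgcs1 at 6 h against 0 h without the 0 h library of replicate 3 (0.65, and -1.34 without that of replicate 2) and for Lss at 12 h against 0 h without the 0 h library of replicate 2 (3.92, and -4.93 without that of replicate 3). For comparisons with 0 h, DESeq2 called 1 gene higher at 3 h and 1 lower at 6 h, and isolation date gave 1 lower at 6 h. The count of 1 higher at 6 h became 0 with no filter, in the fit of 2 groups and at an adjusted p below 0.05. The count of 2 higher at 12 h became 1 with no filter and in the fit of 2 groups. The count of 1 higher became 2 at 18 h with library size scaling and 2 at 96 h in the fit of 2 groups. At 96 h against 12 h, 0 were higher with no filter or at an adjusted p below 0.05, 2 with DESeq2 and 2 in the fit of 2 groups, and 1 was lower with no fold threshold. Against 6 h, DESeq2 gave 2 higher at 96 h and 3 at 18 h, and the fit of 2 groups gave 0 at 18 h. With the replicate block, 0 of the 8 genes were higher at 6 h against 0 h (Sqle, adjusted p = 0.121) and 1, Fdps, changed over the 7 times, and it moved no other count. Among related genes the block lost 8 calls, those of Acat2, Soat1 and Elovl6 at 96 h, Elovl6 at 3 h, Cyp27a1 at 12 h and Scap and Abcg1 at 24 h against 0 h and Dhcr7 at 96 h against 12 h (adjusted p between 0.103 and 0.234). Residuals of same-numbered samples correlated by 0.014 on average, with 0 of 51 pairs over 0.1, and those of other samples by -0.007. Of the 19 samples, 15 correlated best with one of their own number, and whether the number pairs samples was not tested. Among the related genes named above, calls lost with no filter were those of Insig2, Fasn and Dhcr7 at 12 h, Msmo1 at 18 h, Dhcr7 at 6 h, Acat2, Soat1 and Elovl6 at 96 h, Scap and Abcg1 at 24 h and Ggps1 and Elovl6 at 3 h against 0 h, and Dhcr7 at 96 h against 12 h and 6 h. Calls lost in the fit of 2 groups were those of Dhcr7 at 6 h, Insig2 and Lipa at 12 h, Scap at 24 h, Fasn at 96 h and Nus1 at 3 h against 0 h. DESeq2 lost Fasn at 12 h and Soat1 at 96 h, both with a fold change under 2. Library size scaling lost Npc2 at 18 h and Abcg1 at 24 h, and isolation date lost Cyp27a1 at 12 h, Abcg1 at 24 h and Soat1 at 96 h. For the other losses the cause was not tested.

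Leaving out each library gave 0 to 1 higher at 3 h, 0 to 1 at 6 h, 0 to 2 at 12 h, 0 to 2 at 18 h, 0 to 1 at 24 h and 0 to 1 at 96 h against 0 h, 0 to 1 lower at 6 h, 0 to 1 lower at 6 h against 3 h and 0 to 1 higher at 12 h against 6 h. It gave 0 higher each time and 0 to 1 lower at 96 h against 12 h, 0 to 1 higher at 18 h against 6 h and 1 to 2 changed over the 7 times. Where 1 library remained at 0 h or 24 h, it was assumed to vary like the other groups. Library size scaling shifted the median gene by up to 0.27 in log2 (24 h against 0 h). Sqle, Idi1, Fdft1 and Lss had 4, 1, 3 and 6 of 19 libraries without a count, and the part of depth in this was not tested.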
